A study of Mus musculus with 6 samples.

Results

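The genes described here are 10 genes of the YAP, TAZ and TEAD pathway, *Ccn1*, *Ccn2*, *Yap1*, *Wwtr1*, *Tead1*, *Tead4*, *Vgll4*, *Lats2*, *Amotl1* and *Amotl2*, followed across the regions whose DNA methylation differed between lung endothelial cells (EC) of infant and young adult mice. A differentially methylated region (DMR) was counted for a gene when its midpoint lay in the gene body, from the first to the last base of the curated RefSeq transcripts, or within 10 kb of it. By this rule the 10 genes held 38 of the 18,333 DMRs listed by the authors, and they are 10 of 26,182 annotated genes. Methylation was measured by tagmentation-based whole-genome bisulfite sequencing, in which a transposase adds the adaptors and bisulfite then converts unmethylated cytosines. Both groups were C57BL/6N mice, with no allele or agent named in the labels, 3 infant samples of 8 to 10 days and 3 young adult samples of 8 to 12 weeks, described as female in the study's methods. The cells were sorted as CD31+ CD34+ and negative for PTPRC, LYVE1, LY76, PDPN and propidium iodide, so that leukocytes, lymphatic EC, erythroid cells and dead cells were gated out. Different kinds of blood vessel were not separated, so that a change within a cell and a change in the mix of EC cannot be told apart. A list of methylation regions holds no marker transcripts, and the cell identity was not checked here.

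In the Hippo pathway, the kinases MST1 and MST2 activate LATS1 and LATS2, which phosphorylate the coactivators YAP and TAZ and keep them out of the nucleus. Nuclear YAP and TAZ bind DNA through TEAD factors and switch on target genes such as those for CCN1 and CCN2, while VGLL4 competes for the TEADs and angiomotins hold YAP and TAZ at cell junctions. In EC the pathway responds to cell density, stretch and flow and is known for its part in vessel sprouting and junction remodelling.

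The values are group means over the CpGs of a DMR, as pooled by the authors over the 3 samples of each group. Values per sample were not used here, and the depth behind a DMR is unknown beyond the authors' coverage minimum per CpG. So no difference could be set against the spread between mice, and no p-value is given. The authors selected the DMRs on these same samples, by a t-test between the groups at single CpGs. A DMR needed at least 3 consecutive CpGs that passed and a difference of at least 10 points in the means. The authors' test was thus made on CpGs and not on the difference of a whole DMR. A difference is given in percentage points as young adult minus infant, called a gain when above 0 and a loss when below 0.

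Of the 38 DMRs, 26 gained and 12 lost methylation with age. The gain share was 68.4% (95% Wilson interval 52.5% to 80.9%), beside 54.1% of all listed DMRs. The interval covers counting error only and takes the DMRs as independent, although many share a gene. *Tead1* alone held 14 of the 26 gains. Without it the other genes had 12 gains and 12 losses. *Ccn1*, *Ccn2*, *Tead1* and *Amotl1* had gains and no loss, *Lats2* and *Tead4* had losses and no gain, and *Yap1*, *Wwtr1*, *Vgll4* and *Amotl2* had both. Every one of the 10 genes had a DMR, beside 26.5% of all genes, but the genes were chosen because they did and nothing is read from this count.

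**Figure D1:**
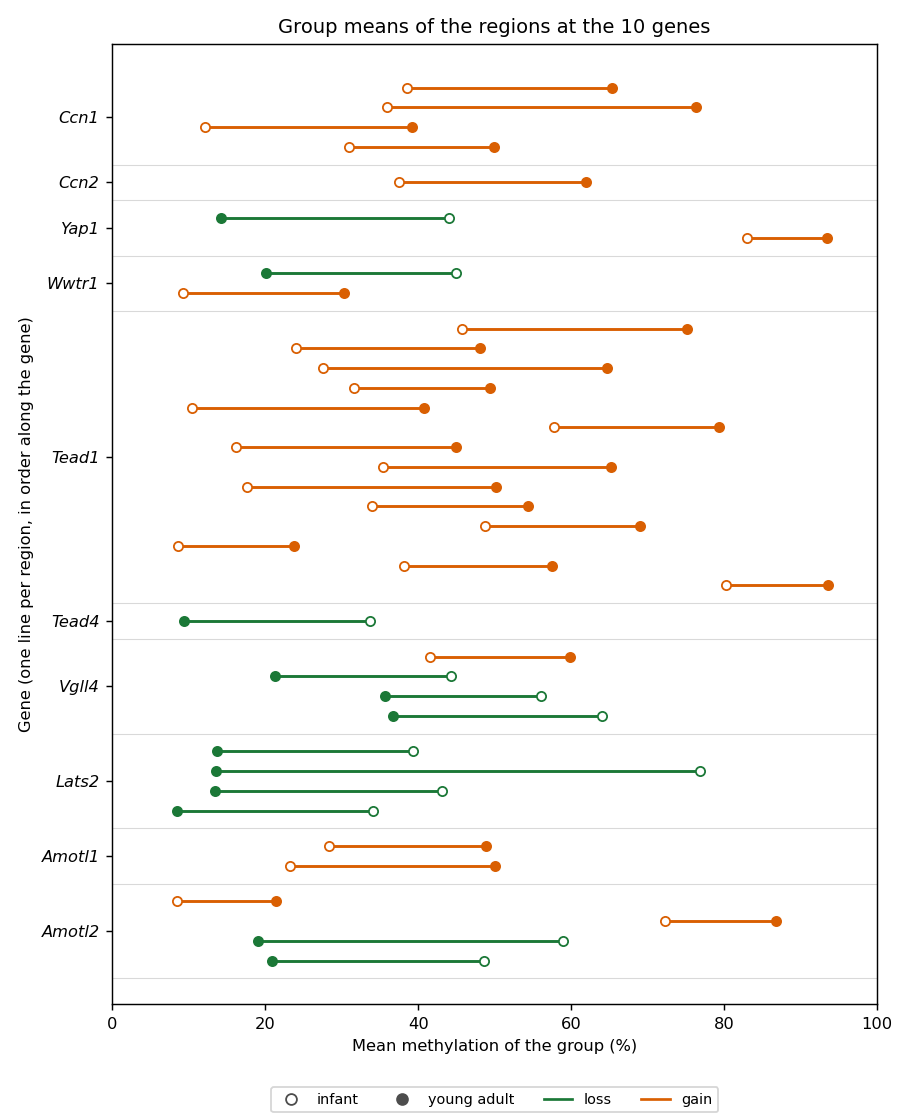
Mean methylation in percent (horizontal axis) of each of the 38 DMRs, with one line per DMR grouped by gene (vertical axis), open circles for infant and filled circles for young adult EC, orange for gains and green for losses. The 14 lines of *Tead1* all run to higher methylation, the 4 lines of *Lats2* all run to lower methylation, and the longest line is the *Lats2* DMR that goes from 76.9% to 13.6%. The points are means of 3 samples without error bars.

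For 8 of the 10 genes, the sequences of 1 to 3 DMRs are printed, chosen for a large difference, a TEAD motif or a short length, on the plus strand of mm10, with CpGs in capitals. Each listed DMR starts and ends on a CpG, and where a whole DMR is printed its methylation values refer to the capital positions. Of the *Ccn1* upstream DMR only the central 300 bp are printed. They hold 9 of the 17 CpGs to which its values refer.

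The secreted target genes showed gains only. *Ccn1* (formerly *Cyr61*), a matricellular protein that binds integrins, is a 3.02 kb gene on the minus strand of chromosome 3 (145646971 to 145649985) and had 4 gain DMRs. The largest lay 2.21 kb upstream of the transcription start, spanned 559 bp with 17 CpGs and went from 35.9% methylation in infant to 76.4% in young adult mice, a difference of 40.4 points (chr3:145651920-145652478). It had the most CpGs of the 38 DMRs. A second upstream DMR at 2.95 kb from the start went from 38.5% to 65.4%. Within the gene, a DMR in coding exon 3 went from 12.1% to 39.2%. Its neighbour, with the midpoint in intron 3, went from 31.0% to 49.98%. Each of the 4 was thus below 40% in infant EC. The central bases of the large upstream DMR and the whole exon DMR are shown because both hold a TEAD motif, GGAATG, which reads CATTCC on the other strand.
*Ccn1* upstream DMR, central part, chr3:145652050-145652349: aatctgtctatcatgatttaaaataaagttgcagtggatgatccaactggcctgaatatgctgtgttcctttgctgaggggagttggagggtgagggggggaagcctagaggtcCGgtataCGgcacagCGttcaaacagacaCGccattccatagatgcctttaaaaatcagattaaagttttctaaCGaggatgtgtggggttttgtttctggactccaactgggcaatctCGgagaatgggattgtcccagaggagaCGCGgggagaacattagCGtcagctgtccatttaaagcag
*Ccn1* exon DMR, chr3:145648692-145648828: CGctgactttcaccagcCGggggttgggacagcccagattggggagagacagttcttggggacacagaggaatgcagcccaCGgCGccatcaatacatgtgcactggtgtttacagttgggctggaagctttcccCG
The motif starts at base 147 of the upstream stretch, as cattcc, and at base 69 of the exon stretch, as ggaatg.

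*Ccn2* (formerly *Ctgf*), a matricellular protein linked to fibrosis and matrix production, had 1 DMR, in coding exon 5, 2.11 kb downstream of the start. It went from 37.5% to 62.0%, a difference of 24.4 points over 3 CpGs, which lie at the ends of the region. The gene is 3.24 kb long and lies on the plus strand of chromosome 10 (24595442 to 24598683).
*Ccn2* exon DMR, chr10:24597491-24597608: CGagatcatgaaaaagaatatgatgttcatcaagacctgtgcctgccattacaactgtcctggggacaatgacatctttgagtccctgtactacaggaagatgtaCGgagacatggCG
The next listed DMR at *Ccn2* lay outside the 10 kb rule, 26.5 kb upstream, and went from 32.9% to 51.2%. Inside the rule, the DMR farthest from a gene body was an *Amotl2* gain 7.55 kb upstream of the start.

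The coactivator genes each had 1 loss and 1 gain. *Yap1*, which encodes YAP and covers 72.6 kb of the minus strand of chromosome 9 (7931999 to 8004596), lost methylation in intron 2, from 44.0% to 14.2% over 4 CpGs, a difference of -29.8 points. Its gain lay beyond the 3′ end of the gene, 77.0 kb from the start (chr9:7927502-7927644), and went from 83.0% to 93.5%. The gain of 10.5 points was the smallest difference of the 38, and the promoter nearest to it in the authors' list is that of *Birc3*. *Wwtr1*, which encodes TAZ and covers 120.3 kb of the minus strand of chromosome 3 (57455644 to 57575910), had both DMRs in intron 2, with midpoints 6.30 kb apart. The one 69.9 kb from the start went from 9.3% to 30.3% and the one 63.6 kb from the start went from 44.9% to 20.1%, so that the less methylated of them in infant EC was the more methylated in young adult EC. The opposite differences at *Wwtr1* lie on stretches of 14 bp (gain) and 40 bp (loss), while the *Yap1* loss spans 283 bp.
*Yap1* loss, chr9:7982291-7982573: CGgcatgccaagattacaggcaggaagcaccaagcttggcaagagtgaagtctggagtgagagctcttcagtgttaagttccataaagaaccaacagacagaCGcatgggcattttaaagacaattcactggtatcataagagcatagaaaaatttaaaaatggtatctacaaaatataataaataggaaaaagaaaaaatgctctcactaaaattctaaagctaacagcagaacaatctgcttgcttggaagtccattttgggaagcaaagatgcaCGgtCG
*Wwtr1* gain, chr3:57506030-57506043: CGtgaCGagcctCG
*Wwtr1* loss, chr3:57512320-57512359: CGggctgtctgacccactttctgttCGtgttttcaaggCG

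*Tead1*, which encodes a DNA-binding partner of YAP and TAZ, had the most DMRs of the 10 genes. All 14 were gains and all lay in introns of the 227.4 kb gene (plus strand of chromosome 7, 112679356 to 112906784), 12 of them in introns 1 and 2. The median difference was 22.8 points, with a range of 13.4 to 37.2. Of the 14, 12 were below 50% methylation in the infant group and 5 in the young adult group. The largest difference lay in intron 1, 32.8 kb from the transcription start, where methylation went from 27.5% to 64.7%. The widest DMR, 908 bp with 10 CpGs in intron 2, went from 17.6% to 50.2%. The DMR with the lowest infant methylation, 8.57%, reached 23.8%, and the one with the highest, 80.3%, reached 93.6%.
*Tead1* largest gain, chr7:112712067-112712153: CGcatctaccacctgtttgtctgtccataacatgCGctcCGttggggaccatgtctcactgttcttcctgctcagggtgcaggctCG
*Tead1* shortest DMR, chr7:112720880-112720898: CGcaagcCGggttcctgCG
*Tead1* gain with a TEAD motif, chr7:112788831-112789043: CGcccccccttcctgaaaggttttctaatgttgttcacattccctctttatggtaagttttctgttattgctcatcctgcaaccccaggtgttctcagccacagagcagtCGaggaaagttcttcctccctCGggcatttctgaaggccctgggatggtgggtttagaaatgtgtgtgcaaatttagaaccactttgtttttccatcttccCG
The shortest DMR, of 19 bp, went from 10.4% to 40.8%, and the DMR with the TEAD motif at base 38, as cattcc, went from 35.4% to 65.3%.

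The *Tead1* gains were spread over 199 kb, from 1.73 kb to 200.8 kb after the start, with gaps of 166 bp to 54.9 kb between neighbours. The first, in intron 1 near the start, went from 45.7% to 75.2%, and the next, 5.97 kb from the start in a CpG-rich window, from 24.1% to 48.1%. Further into intron 1 lay a pair of DMRs near 41 kb, the shortest one above and a neighbour that went from 31.6% to 49.4%, and a DMR at 54.1 kb that went from 57.7% to 79.4%. Above 50% in both groups were this DMR and the one in intron 11. In intron 2 the DMR next to the one with the TEAD motif went from 16.2% to 45.0%, and those at 131.5 kb and 145.8 kb went from 34.0% to 54.4% and from 48.7% to 69.0%. The DMRs closest to the 3′ end had differences below the gene's median, with 19.4 points in intron 5 (from 38.1% to 57.5%) and 13.4 points in intron 11. Long genes can hold more DMRs than short ones. Of the 810 genes at least as long as *Tead1*, 9 had 14 or more gains, and of all 26,182 genes 17 did. Of the 1,174 genes with at least 4 DMRs, 22.1% had gains without a loss, as *Tead1* and *Ccn1* had, and 34.6% had losses without a gain, as *Lats2* had. *Tead4*, another TEAD gene (minus strand of chromosome 6, 128227143 to 128300813), had 1 DMR, a loss in intron 1 from 33.7% to 9.37% over a stretch of 14 bp.
*Tead4* loss, chr6:128294260-128294273: CGaCGaggacaaCG

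**Figure D2:**
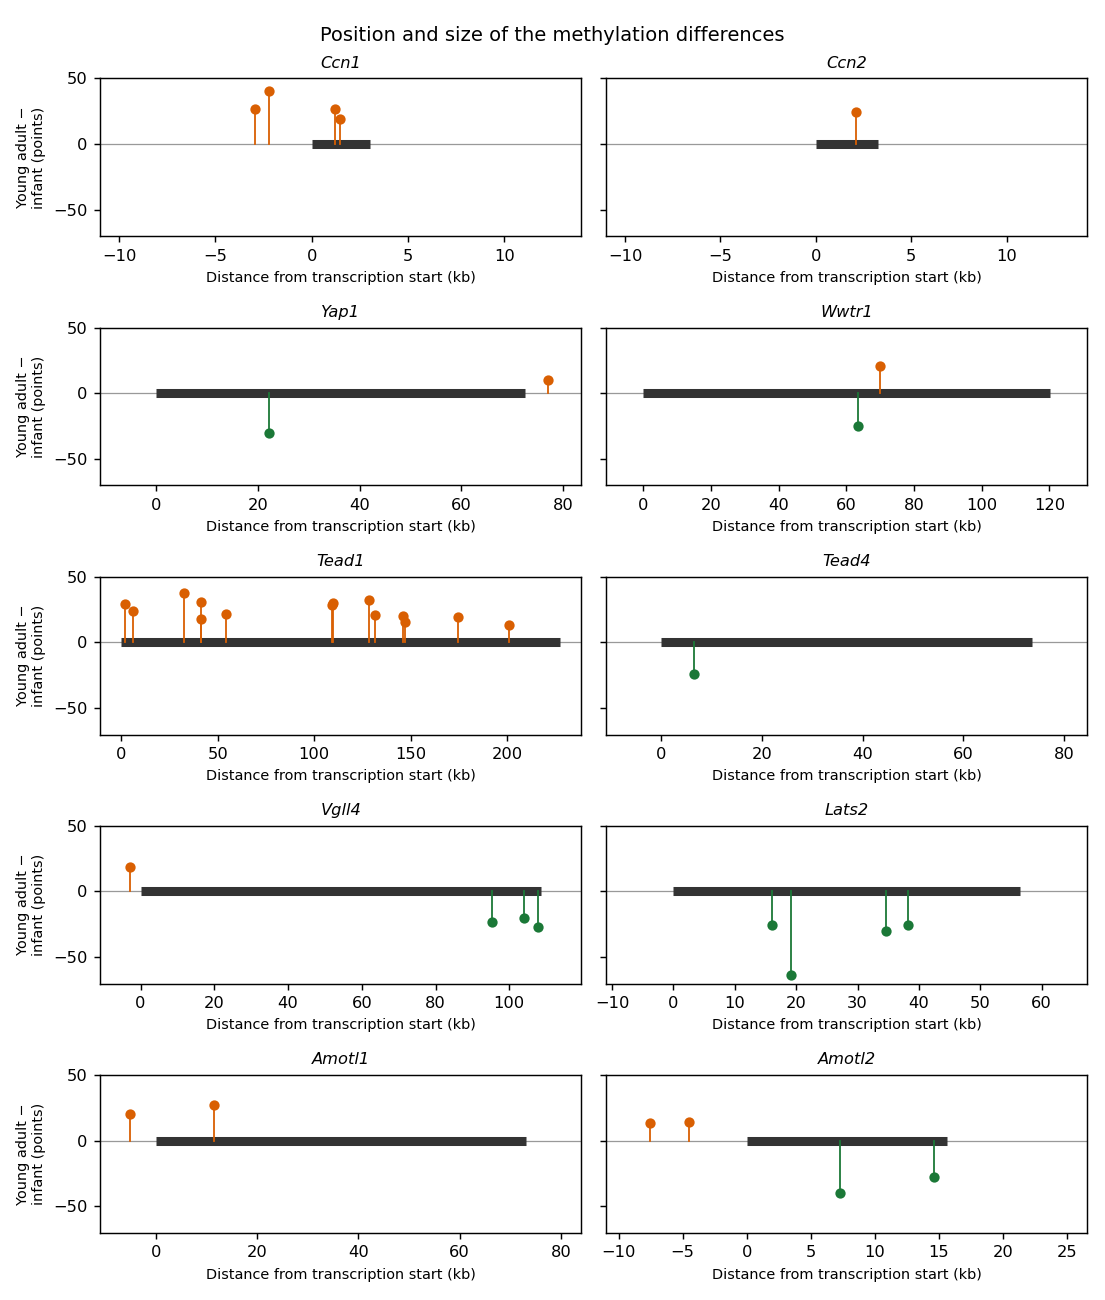
Difference in methylation between the group means, young adult minus infant in percentage points (vertical axis), against the distance of the DMR's midpoint from the transcription start in kb (horizontal axis, one panel per gene with its own range), with the gene body as a thick bar, gains in orange and losses in green. *Tead1* gains stand along the bar from 1.73 kb to 200.8 kb, *Lats2* losses sit between 16.0 and 38.2 kb, and the *Vgll4* losses lie at the 3′ end of the gene.

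*Vgll4*, whose product competes with YAP for TEAD factors, lies on the minus strand of chromosome 6 (114860628 to 114969203). It had 3 losses toward its 3′ end and 1 gain upstream. The loss in the 3′ UTR went from 64.0% to 36.7% (chr6:114861272-114861456), and the losses in intron 3 went from 56.1% to 35.7% and from 44.4% to 21.3%. The gain lay 2.89 kb upstream of the start (chr6:114972018-114972159) and went from 41.6% to 59.8%. In infant EC the upstream DMR was the least methylated of the 4, and in young adult EC it was the most methylated.

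*Lats2*, the kinase that phosphorylates YAP and TAZ, covers 56.5 kb of the minus strand of chromosome 14 (57689662 to 57746123). It had 4 DMRs and all were losses in intron 2. One of them, 19.2 kb from the start, went from 76.9% to 13.6%. This difference of -63.3 points was the largest of the 38 and was also larger than any gain among them. The other 3 went from 39.3% to 13.7%, from 43.1% to 13.4% and from 34.1% to 8.47%. In young adult EC all 4 lay between 8.47% and 13.7%, while in infant EC they lay between 34.1% and 76.9%.
*Lats2* largest loss, chr14:57726838-57727083: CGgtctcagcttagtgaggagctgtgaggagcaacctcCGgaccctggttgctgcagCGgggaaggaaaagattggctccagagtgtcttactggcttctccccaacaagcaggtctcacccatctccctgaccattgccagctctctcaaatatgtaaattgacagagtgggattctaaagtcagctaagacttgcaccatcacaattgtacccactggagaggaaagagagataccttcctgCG

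The angiomotin genes encode junction proteins that bind YAP and TAZ. *Amotl1*, on the minus strand of chromosome 9 (14541966 to 14615000), had 2 gains, one in intron 1 from 23.3% to 50.01% (chr9:14603416-14603555) and one 5.12 kb upstream of the start from 28.4% to 48.8%. *Amotl2*, on the plus strand of the same chromosome (102717804 to 102733417), had 2 gains upstream and 2 losses within the gene. The upstream gains went from 8.45% to 21.4% at 7.55 kb and from 72.4% to 86.8% at 4.52 kb (chr9:102713162-102713414). The loss with its midpoint in coding exon 5 went from 58.9% to 19.1%, a difference of -39.9 points. The loss in the 3′ UTR went from 48.7% to 20.9%. The authors' list places *Gm5627* as the promoter nearest to the 3′ UTR loss.
*Amotl2* loss at exon 5, chr9:102725035-102725179: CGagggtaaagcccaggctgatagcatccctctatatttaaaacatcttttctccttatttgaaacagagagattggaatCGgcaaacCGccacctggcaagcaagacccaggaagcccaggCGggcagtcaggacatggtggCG

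By midpoint, 26 of the 38 DMRs lay in introns, 5 in exons and 7 in the flanks of 10 kb. A DMR counted for an intron or exon can reach into the part beside it. None lay within 1 kb of the start of the longest curated transcript of its gene, from which the distances to the start are measured. Other starts of the same gene were not checked. None lay in the body of another curated gene. All 12 losses lay in gene bodies, 9 in introns and 3 in exons. The 7 flank DMRs were all gains, 6 upstream and 1 downstream. The same split was not counted over all listed DMRs, so it is not read as a trait of these genes. For the whole list, the paper reports fewer DMRs at transcription starts and an excess of losses in introns. For 35 of the 38, the promoter nearest to the DMR in the authors' list was that of the same gene. The other 3 were the gain beyond *Yap1*, the last *Tead1* gain, which the list gives to *Rassf10*, and the 3′ UTR loss of *Amotl2*.

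Per length of the window (gene body with flanks), *Ccn1* had 17.4 DMRs per 100 kb, *Amotl2* 11.2, *Tead1* 5.66, *Lats2* 5.23 and *Ccn2* 4.30. The remaining genes ranged from 1.07 (*Tead4*) to 3.11 (*Vgll4*). The median over all genes with a DMR was 3.05.

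At the median, the gain DMRs of the 10 genes were less methylated than the gains of the whole list in both groups. Their medians were 32.8% (infant) and 56.0% (young adult), where the medians of all 9,911 gains were 54.8% and 78.1%. In infant EC, 22 of the 26 (84.6%) were below 50%, beside 44.1% of all gains. The median difference was 21.3 points, beside 20.4 for all gains. The loss DMRs started at a median of 44.6% in infant EC and stood at 16.6% in young adult EC, beside 61.5% and 25.4% for all 8,422 losses. Their median difference was -26.5 points, beside -32.5. In young adult EC, 10 of the 12 (83.3%) were below 22%, beside 42.7% of all losses. This cutoff was not set in advance and lies just above a *Vgll4* value of 21.3%, so nothing is read from this share. A difference of at least 30 points was seen at 6 of the 38 (15.8%), beside 35.1% of all listed DMRs. Among losses these were 2 of 12 (16.7%, at *Lats2* and *Amotl2* exon 5), beside 61.2% of all losses. Among gains they were 4 of 26 (15.4%, at *Ccn1* upstream and 3 at *Tead1*), beside 13.0% of all gains.

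**Figure D3:**
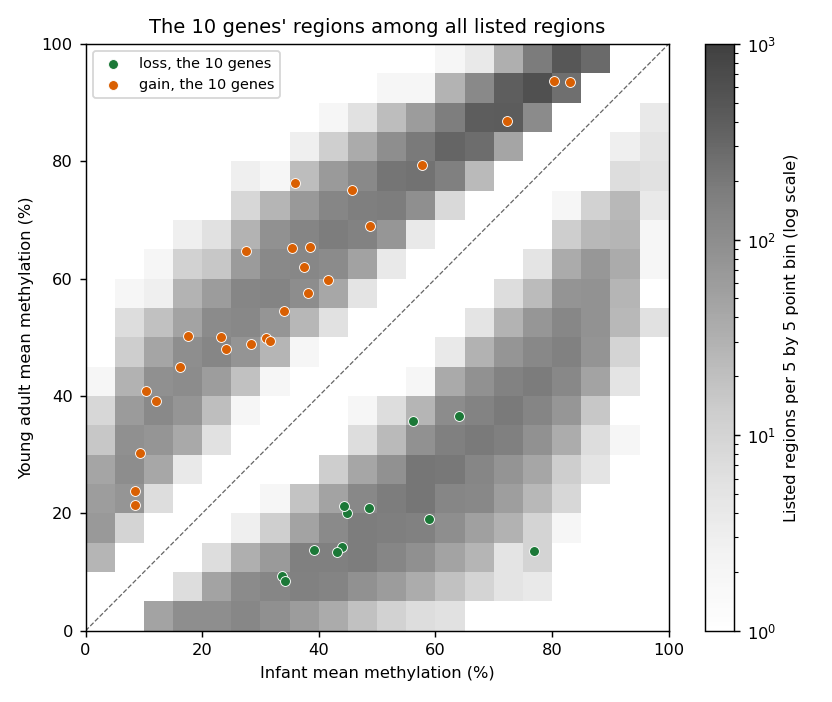
Mean methylation in infant EC (horizontal axis, percent) against young adult EC (vertical axis, percent) of all 18,333 listed DMRs, as grey bins of 5 by 5 points with a log colour scale, and of the 38 DMRs of the 10 genes, with gains in orange above the dashed line of equal methylation and losses in green below it. Of the 26 orange points, 22 lie left of 50% infant methylation, and the green point far to the right of the others is the *Lats2* DMR at 76.9% and 13.6%.

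By size, the median was 3 CpGs per DMR, as in the list, and 21 of the 38 (55.3%) had exactly 3, beside 66.5%. The median width was 160 bp, beside 126 bp. The median GC content was 49.0% in the 200 bp around the midpoint, beside 48.5%. One DMR, in *Tead1* intron 1, lay in a window with the GC and CpG content of a CpG island (2.63%), beside 4.08% of the list. The TEAD motif GGAATG (either strand) was found in the 200 bp around 4 of the 38 midpoints (10.5%, Wilson interval 4.17% to 24.1%), beside 11.7% of all listed DMRs. All 4 were gains, 2 at *Ccn1* and 2 at *Tead1*. The motif TGANTCA, which AP-1 binds and which reads TGANTCA on the other strand too, was found at 6 (15.8%, 7.44% to 30.4%), beside 6.51%. These were 3 gains (1 at *Yap1* and 2 at *Tead1*) and 3 losses, at *Wwtr1*, *Vgll4* and *Lats2*. One window, in *Tead1* intron 2, held both motifs, at places that did not overlap. Both motif intervals take the DMRs as independent, although many share a gene. In windows of 400 bp the TEAD motif was found at 13.2%, beside 21.8% of all listed DMRs, and TGANTCA at 23.7%, beside 12.2%. Within the DMR itself the shares were 10.5%, beside 9.19%, and 13.2%, beside 5.33%. A match does not show that a factor bound there.

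In the RefSeq promoter sequences (GRCm38.p6, 250 bases before to 50 after the start), *Ccn1*, *Yap1*, *Wwtr1*, *Vgll4*, *Lats2* and *Amotl2* held GGAATG on either strand and *Amotl1* did not. That is 6 of the 7 genes matched, beside 16.6% of all genes in the table. *Ccn2*, *Tead1* and *Tead4* had no entry. The promoter search was chosen after the sequences had been seen. The *Ccn1* and *Amotl2* stretches, the 250 bases upstream of the start on the strand of the gene, are shown because both genes are known targets of YAP and TAZ, with the motif in capitals.
*Ccn1* promoter: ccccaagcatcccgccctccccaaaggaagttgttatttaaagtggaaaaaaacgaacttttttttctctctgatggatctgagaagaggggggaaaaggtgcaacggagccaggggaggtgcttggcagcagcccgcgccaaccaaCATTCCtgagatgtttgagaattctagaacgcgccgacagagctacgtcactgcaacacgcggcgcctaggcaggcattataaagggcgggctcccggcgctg
*Amotl2* promoter: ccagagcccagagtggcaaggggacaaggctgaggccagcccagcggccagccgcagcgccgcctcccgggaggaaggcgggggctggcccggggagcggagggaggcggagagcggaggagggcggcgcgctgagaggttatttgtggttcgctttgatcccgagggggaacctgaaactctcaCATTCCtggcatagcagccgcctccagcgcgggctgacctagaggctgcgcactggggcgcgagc
In *Ccn1*, the DMR nearest to this promoter stretch downstream was the exon 3 gain at 1.23 kb after the start, and the nearest upstream was the large gain at 2.21 kb before it. For none of the genes did a DMR midpoint lie in the promoter stretch.

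Further genes of the pathway, in lists of 48 genes, gave 102 DMRs with 54 losses and 48 gains. At least 1 DMR was found at 28 of the 48, beside 26.5% of all genes. The share over all genes here and below is not matched for gene length, and long genes can hold more DMRs. Upstream kinases and adaptors had 43 losses among 59 DMRs (72.9%, beside 45.9% of all listed DMRs), at 13 of 20 genes (beside 26.5% of all genes). *Frmd6*, a FERM domain protein of the NF2 group, had 19 losses and no gain, with differences of -53.3 to -19.6 points. Without it the list had 24 losses among 40 DMRs (60%). *Stk4*, which encodes MST1, had 7 losses of -59.8 to -27.7 points, and *Sav1*, its scaffold, had 3 losses. *Stk3*, which encodes MST2, had 3 gains, and so had *Nf2*. *Lats1* had 1 loss, from 80.6% to 56.9%, as *Lats2* had losses. *Wwc2* had 6 losses and 1 gain, *Taok3* 1 loss and 4 gains, *Map4k4* 2 losses and 1 gain, and *Ptpn14* 2 losses and 2 gains. Further YAP and TAZ target genes had 24 gains among 33 DMRs (72.7%, beside 54.1% of all listed DMRs), at 9 of 17 genes (beside 26.5% of all genes). *Arhgef17* had 6 gains of 21.5 to 34.0 points, *Rbms3* had 5 gains, *Crim1* had 3 gains, *Nuak2* had 2 losses and 2 gains, and *Asap1* had 7 losses and 3 gains. Among the other TEAD and VGLL genes, *Tead2* had 2 gains, both within the bodies of neighbouring genes, and *Tead3*, *Vgll1*, *Vgll2* and *Vgll3* had none. The cadherin and polarity genes had 8 DMRs at 5 of 6 genes (beside 26.5% of all genes), with 3 gains at *Dchs1*. The lists were chosen with earlier results of these data known, and the difference in direction between them was not tested.

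**Figure D4:**
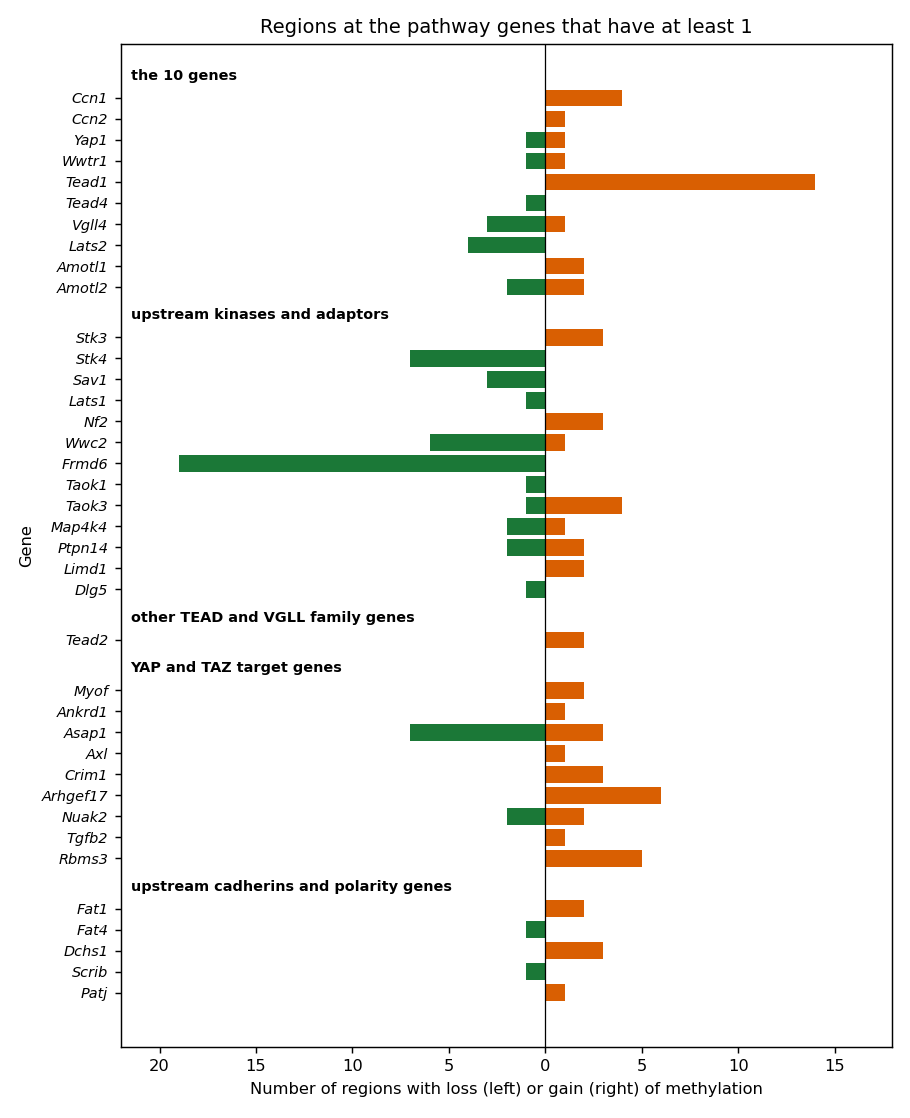
Number of DMRs with loss (green, to the left) and gain (orange, to the right) of methylation at each pathway gene with at least 1 DMR (vertical axis), grouped by list. The longest bars are the 19 losses of *Frmd6* and the 14 gains of *Tead1*, and the target genes extend mainly to the right.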

How the data were processed

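The authors trimmed and aligned the bisulfite reads (processing notes: bcl2fastq 1.8.4, BWA 0.6.1, R 3.2.2) to mm10 and listed regions of at least 3 CpGs that passed a coverage minimum and their test between the groups and whose means differed by at least 10 points. The deposited list holds, per group, 1 methylation fraction for a region, averaged by the authors over 3 samples and shown here as percent. Selection by this test on the same samples can enlarge the differences.

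DMRs were placed by midpoint on 45,756 curated RefSeq transcripts of GRCm38.p6 (Python 3.11.15, pandas 2.3.3, pysam 0.24.0). Distances from the start, introns and exons refer to the longest transcript of each gene. Listed positions matched CpGs in 18,333 of 18,333 DMRs. Regions run from the first base of the first CpG to the last base of the last. Motifs were searched in 200 bp around the midpoints. The placement was tested on simulated data. The genes named are the 10 genes and, in the other lists, *Lats1*, *Tead2* and its family and all genes with at least 3 DMRs. *Lats1* and the *Tead2* family were named after their values were seen. The 10 genes and the lists were chosen with earlier results of these data known. The alternatives were a difference of at least 20 points, at least 5 CpGs, merging of neighbours within 500 bp, no flanks, flanks of 50 kb, any overlap in place of the midpoint, the authors' nearest promoter, and other motif windows.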

Additional observations from a re-analysis of the deposited data

How the results depend on the processing

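The counts of 26 gains and 12 losses at the 10 genes stayed within 1.5 times under all alternatives but a minimum of 5 CpGs and, for gains, a minimum difference of 20 points. With at least 5 CpGs per DMR there were 6 gains and 3 losses, at 5 of the 10 genes, and 9 of the other 48 pathway genes had a DMR in place of 28. Fewer than 5 CpGs were held by 29 of the 38 DMRs and by 83 of the 102 at the other genes. With a difference of at least 20 points, 17 gains were left. Counts of gains minus losses per gene shifted for each of the 10 genes under at least 1 alternative. There were 20 such shifts over genes and alternatives, beside 50 counts that stayed within 1.5 times. With at least 5 CpGs, *Tead1* went from 14 to 3 and *Lats2* from -4 to -1, and *Ccn2*, *Tead4* and *Amotl1* fell to 0. *Ccn1* went from 4 to 2 without flanks or with neighbours merged, and *Yap1* from 0 to -1 without flanks or at 20 points. *Ccn2* rose from 1 to 2 with flanks of 50 kb and to 4 by the authors' nearest promoter. The sign at *Amotl2* (0) depended on the setting, with -2 without flanks or at 20 points, -1 with at least 5 CpGs, and 1 with flanks of 50 kb or by the authors' nearest promoter. The labels give no pairs between infant and young adult samples, so no paired analysis applied. No sample could be left out because only group means were used. The depth behind a DMR is unknown beyond the authors' coverage minimum per CpG and limits how exactly each difference is known.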

Other observations

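Between 10 and 50 kb from the 10 genes lay 6 further DMRs, 4 gains and 2 losses. The gains were 18.3 points at *Ccn2* (26.5 kb upstream), 16.6 points at *Ccn1* (35.5 kb upstream), 16.6 points at *Amotl2* (38.1 kb downstream) and 18.3 points at *Tead4* (38.6 kb upstream). The losses were -40.6 points at *Tead4* (43.8 kb upstream, from 62.3% to 21.8%) and -33.3 points at *Wwtr1* (44.6 kb upstream, from 58.7% to 25.4%). The authors' list gives *Tulp3* as the promoter nearest to both *Tead4* DMRs and *Commd2* for the *Wwtr1* DMR.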
